A study of Rattus norvegicus with 15 samples.

Results

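A set of 6 genes of phagocytes and their lysosomes was followed in rat brain after intracerebral hemorrhage: Spp1, Lgals3, Gpnmb, Cd68, Aif1 and Arg1. They were chosen by name and Ensembl ID, without a threshold on their values but with earlier results of these data known. Each of the 6 IDs was among the 15094 genes counted. All 6 also passed the filter on low counts that left 14963 genes for testing. The IDs are ENSRNOG00000043451 for Spp1, ENSRNOG00000010645 for Lgals3, ENSRNOG00000008816 for Gpnmb, ENSRNOG00000037563 for Cd68, ENSRNOG00000000853 for Aif1 and ENSRNOG00000013304 for Arg1. These names came with the choice of genes, since the count table lists IDs without names.

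The tissue was brain of Sprague-Dawley rats, labelled as basal ganglia, sampled 72 h after modelling. Rats with hemorrhage followed by mithramycin A (ICH_MA), rats with hemorrhage alone (ICH) and rats with a sham operation (sham) gave 3, 3 and 5 of the libraries analysed, in that order. The design named 5 rats in each group, and 4 labelled samples, 2 of ICH_MA and 2 of ICH, were not analysed here. The count table holds the other 11, and the sources used here do not say how those were chosen. The sources used here do not give how the hemorrhage was induced, the dose and route of the drug, whether ICH and sham rats received its vehicle, or the age and sex of the rats. Mithramycin A is a drug that binds GC-rich DNA and keeps the transcription factor Sp1 from its sites there. All samples carried the same batch date.

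After bleeding into the brain, resident microglia and macrophages that enter from the blood take up red cells, haemoglobin and cell debris, and digest them in lysosomes. Microglia and macrophages share many genes, so these sources cannot be told apart by the 6 genes. Several of them are low in resting microglia and are known to rise when phagocytes are loaded with lipid or debris.

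Library totals were 57164791 to 66381416 counts in ICH_MA, 58317912 to 65438000 in ICH and 56393423 to 67733469 in sham. ICH replicate 5 stood apart from ICH replicates 1 and 2 in the genes described here. It had the lowest value of the ICH libraries for 5 of the 6 genes. Fold changes of those 5 genes in comparisons with the ICH group are therefore given with and without it. Levels, medians, ranks, ratios and correlations with the 6 genes are given with it only. Sham replicate 1 had a mean Spearman correlation of 0.988 with the other sham libraries, against 0.992 to 0.993 for the rest of the sham group. In the ICH group this mean was lower, at 0.985, 0.985 and 0.982 for replicates 1, 2 and 5. It was 0.992 to 0.993 in ICH_MA. Defining markers of the tissue and of other cell types could not be checked, because no other ID could be given a name. In bulk tissue, more phagocytes, more RNA of these genes per phagocyte and RNA of these genes from other cells cannot be told apart.

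Promoter windows were looked at because the drug given to ICH_MA rats is known for GC-rich DNA and because 5 of the 6 genes rose after hemorrhage. The windows hold 250 bases before and 50 bases from the start of the gene, from RefSeq on the GRCr8 build, and 3 of the 6 genes matched an entry (Spp1, Gpnmb and Cd68). Capitals mark matches to 4 motifs on both strands: GGGCGG, the core of a GC box, TGANTCA, the site of AP-1 factors, and CACGTG and CATGTG, E-boxes of the kind read by MITF and TFEB, factors known for lysosomal genes. Each sequence runs along its gene, 5′ to 3′.
Spp1, chr14:5619755-5620054, minus strand: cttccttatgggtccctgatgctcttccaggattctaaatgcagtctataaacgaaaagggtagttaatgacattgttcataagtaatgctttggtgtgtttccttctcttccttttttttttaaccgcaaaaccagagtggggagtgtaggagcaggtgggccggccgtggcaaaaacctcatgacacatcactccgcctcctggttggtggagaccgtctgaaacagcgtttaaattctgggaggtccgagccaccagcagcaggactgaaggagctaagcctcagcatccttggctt
Gpnmb, chr4:79340878-79341177, plus strand: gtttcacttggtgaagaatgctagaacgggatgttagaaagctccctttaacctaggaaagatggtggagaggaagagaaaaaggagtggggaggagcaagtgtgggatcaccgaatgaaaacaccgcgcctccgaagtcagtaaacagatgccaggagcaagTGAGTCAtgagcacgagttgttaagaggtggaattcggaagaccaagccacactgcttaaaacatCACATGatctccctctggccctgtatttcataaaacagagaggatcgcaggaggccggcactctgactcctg
Cd68, chr10:54882392-54882691, minus strand: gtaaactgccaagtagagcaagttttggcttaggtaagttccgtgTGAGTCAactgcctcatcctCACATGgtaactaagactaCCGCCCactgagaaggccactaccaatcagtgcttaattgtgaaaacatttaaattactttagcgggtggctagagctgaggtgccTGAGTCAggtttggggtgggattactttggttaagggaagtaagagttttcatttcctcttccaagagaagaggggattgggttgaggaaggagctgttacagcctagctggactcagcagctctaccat

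The Spp1 window held none of the 4 motifs. The Gpnmb window held 1 AP-1 match, whose first base lay at position -87 from the start, and 1 CATGTG match at -22, read on the opposite strand and so printed as CACATG. The Cd68 window held 2 AP-1 matches at -205 and -80, 1 CATGTG match at -185 and 1 GC box match at -166, both on the opposite strand, the GC box printed as CCGCCC. No match overlapped another. Among 33469 rat promoter windows of this length, 33.1% held GGGCGG, 7.33% held TGANTCA, 6.42% held CACGTG and 14% held CATGTG. G and C made up 48.7% of the Spp1 window, 49.3% of the Gpnmb window and 46.7% of the Cd68 window, against a median of 51.7% over all windows. These are matches of letters and do not show binding.

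The first comparison asked how the genes differed 72 h after hemorrhage. Of the 6 genes, 5 rose in ICH against sham and Arg1 did not pass the test, where 15% of all 14963 genes rose (3 ICH against 5 sham libraries, quasi-likelihood test of edgeR with p adjusted over all genes). A gene was called when this adjusted p was under 0.05. Without ICH replicate 1, the highest ICH library for 4 of these genes, the same 5 genes were called, where 9.24% of all genes rose. Their log2 fold changes were then 6.26 for Spp1, 4.08 for Lgals3, 4.03 for Gpnmb, 3.38 for Cd68 and 1.58 for Aif1, with edgeR adjusted p up to 0.00171. Leaving out ICH replicate 5, where 17.6% of all genes rose, can only raise the ICH means of these 5 genes, and those values are given as a description. The same held without sham replicate 1, where 15.3% of all genes rose and the rises of the 5 genes ran from 1.78 for Aif1 to 6.47 for Spp1 on the log2 scale. The rises ran from 3.31-fold for Aif1 to 99.96-fold for Spp1. The median log2 fold change of the 6 genes was 4.04, against 0.0039 over all genes tested. In the same 5 genes every ICH library lay above every sham library, which held for 15.2% of all genes.

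Among the secreted proteins, Spp1 encodes osteopontin, a phosphoprotein that binds integrins and CD44 and is made by activated macrophages and microglia. Levels are in CPM, counts scaled to a common library total. Spp1 was at 561, 464 and 126 CPM in ICH replicates 1, 2 and 5, against 2.2, 3.63, 4.86, 5.19 and 3.28 CPM in sham replicates 1 to 5. The ICH library with the lowest level thus stood far above the highest sham library. Spp1 rose by 6.64 (SE 0.52) on the log2 scale, or 99.96-fold with a 95% interval of 45.4 to 220 (edgeR adjusted p = 0.000116). By log2 fold change it was number 10 from the top of 14963 genes. Without ICH replicate 5 the log2 fold change was 7.06.

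Lgals3 encodes galectin-3, a lectin that binds galactose-bearing sugars, is released by macrophages and gathers on damaged lysosomes. Its level was 68.6, 69.4 and 19.3 CPM in ICH replicates 1, 2 and 5, against 2.35, 3.3, 2.29, 2.61 and 2.55 CPM in sham replicates 1 to 5. ICH replicates 1 and 2 were nearly level, and replicate 5 stood well below them but above all sham libraries. This was a rise of 4.32 (SE 0.36) on the log2 scale, or 19.99-fold with a 95% interval of 11.6 to 34.4 (edgeR adjusted p = 0.000159). Leaving out ICH replicate 5 gave a log2 fold change of 4.72.

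Gpnmb and Cd68 belong to the membrane glycoproteins. Gpnmb encodes a transmembrane glycoprotein of lysosomes and the cell surface that is known to rise in phagocytes under lysosomal load. Its level was 226, 144 and 72.7 CPM in ICH replicates 1, 2 and 5, against 5.84, 7.87, 6.79, 6.01 and 6.69 CPM in sham replicates 1 to 5. The ICH libraries were spread and the sham libraries lay close together. Gpnmb rose by 4.47 (SE 0.32) on the log2 scale, or 22.2-fold with a 95% interval of 13.6 to 36.2 (edgeR adjusted p = 9.17e-05). Leaving out ICH replicate 5 gave a log2 fold change of 4.80.

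Cd68 encodes a sugar-coated lysosomal membrane protein of the LAMP family, widely used as a marker of phagocytosing cells. Its level was 23.7, 18.8 and 6.46 CPM in ICH replicates 1, 2 and 5, against 1.08, 1.24, 1.06, 1.27 and 1.4 CPM in sham replicates 1 to 5. The sham values rested on 66 to 83 counts per library, the fewest of the 6 genes. Cd68 rose by 3.75 (SE 0.41) on the log2 scale, or 13.5-fold with a 95% interval of 7.24 to 25.1 (edgeR adjusted p = 0.000293). Leaving out ICH replicate 5 gave a log2 fold change of 4.13.

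Aif1 encodes IBA1, a calcium-binding protein of the actin cytoskeleton that is present in resting microglia as well as in macrophages. Its level was 25.2, 22.6 and 15.7 CPM in ICH replicates 1, 2 and 5, against 7.64, 6.38, 5.43, 5.53 and 6.95 CPM in sham replicates 1 to 5. The groups did not overlap, but the fold change was the smallest of the 5 genes that rose. Aif1 rose by 1.73 (SE 0.15) on the log2 scale, or 3.31-fold with a 95% interval of 2.63 to 4.17 (edgeR adjusted p = 0.000167). Leaving out ICH replicate 5 gave a log2 fold change of 1.903.

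Arg1 encodes arginase 1, an enzyme that splits arginine into ornithine and urea and is used in mice as a marker of alternatively activated macrophages. Its level was 7.62, 6.94 and 7.6 CPM in ICH replicates 1, 2 and 5, against 5.47, 8.63, 7.12, 6.94 and 6.84 CPM in sham replicates 1 to 5. All ICH values lay inside the sham range. The fold change was 1.06 with a 95% interval of 0.836 to 1.33 (edgeR adjusted p = 0.747), and 1.04 with an interval of 0.789 to 1.37 without ICH replicate 5 (edgeR adjusted p = 0.843). Arg1 was measured on 366 to 549 counts per library in sham and 418 to 502 in ICH, more than Cd68 had in sham.

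**Figure D1:**
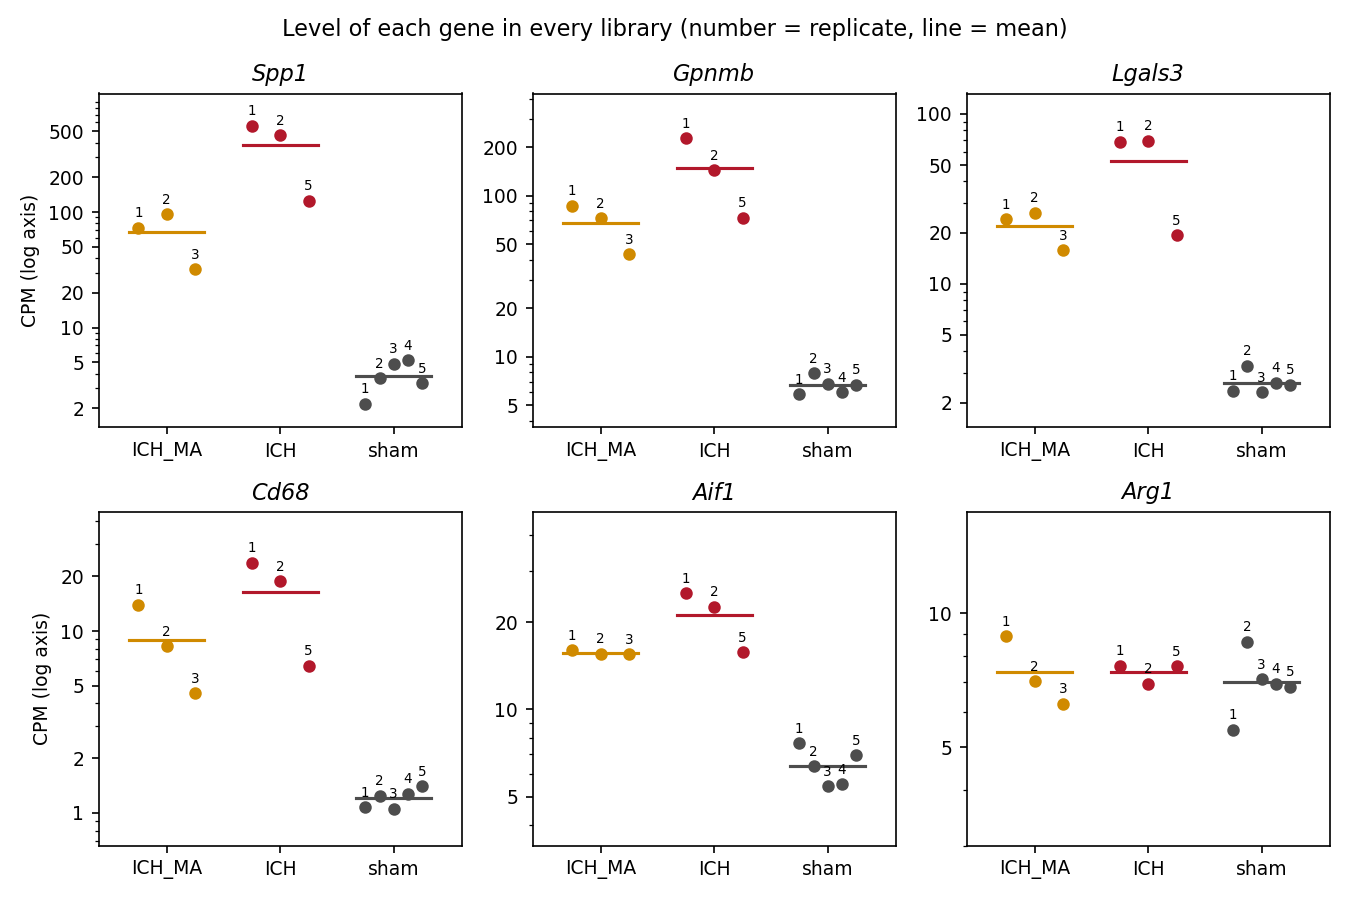
Level of each gene in CPM on a log axis in every library, for ICH_MA, ICH and sham, with the replicate number above each point and the group mean as a line. For Spp1, Gpnmb, Lgals3, Cd68 and Aif1 all ICH_MA and ICH libraries lie above all sham libraries, and for Arg1 the 3 groups overlap.

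The second comparison asked whether the genes differed between treated and untreated hemorrhage. No gene of the 6 passed the threshold in ICH_MA against ICH, where 0% of all 14963 genes did (0 genes, smallest adjusted p = 0.176, edgeR, 3 against 3 libraries). At an unadjusted p under 0.05, 4 of the 6 genes and 2318 of all genes were found with edgeR. With limma-voom 0 of the 6 genes were called, where 0% of all genes were. With DESeq2 Spp1 alone of the 6 was called, lower in ICH_MA, where 1.87% of all genes were called lower. The 5 genes that rose after hemorrhage had lower mean levels in ICH_MA than in ICH. Over all genes tested, risen after hemorrhage or not, 54.3% had a log2 fold change below 0 in this comparison. The median log2 fold change of the 6 genes was -1.003, against -0.018 over all genes tested.

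Spp1 was at 73.1, 96.3 and 31.9 CPM in ICH_MA replicates 1, 2 and 3, against 561, 464 and 126 CPM in ICH replicates 1, 2 and 5. All ICH_MA values lay below all ICH values, a separation in this direction that 9.14% of all genes showed. Spp1 was the only one of the 6 genes whose ICH_MA and ICH levels did not overlap. The log2 fold change, with its SE, was -2.51 ± 0.53, which is 5.72-fold lower in ICH_MA, with a 95% interval of the fold change of 0.0785 to 0.39 (edgeR adjusted p = 0.176). It was number 16 from the bottom of 14963 genes. With DESeq2 the log2 fold change was -2.50 and passed the threshold (adjusted p = 0.00569).

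The other 4 genes that rose after hemorrhage overlapped between ICH_MA and ICH. Lgals3 was at 24.1, 26.3 and 15.7 CPM in ICH_MA replicates 1, 2 and 3, and the ICH replicate 5 value of 19.3 CPM lay among them. Its log2 fold change, with its SE, was -1.25 ± 0.38 (edgeR adjusted p = 0.197). Gpnmb was at 86.6, 72.3 and 43.1 CPM in ICH_MA, and ICH replicate 5 at 72.7 CPM lay inside that range too. Its log2 fold change, with its SE, was -1.13 ± 0.34 (edgeR adjusted p = 0.194).

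Cd68 was at 13.96, 8.24 and 4.57 CPM in ICH_MA replicates 1, 2 and 3, with ICH replicate 5 at 6.46 CPM between them. Its log2 fold change, with its SE, was -0.87 ± 0.44 (edgeR adjusted p = 0.366). Aif1 was at 15.99, 15.6 and 15.5 CPM in ICH_MA, so that the 3 treated libraries were almost level. ICH replicate 5 at 15.7 CPM again lay among them. The log2 fold change of Aif1, with its SE, was -0.43 ± 0.17 (edgeR adjusted p = 0.267). Arg1 was at 8.89, 7.03 and 6.26 CPM in ICH_MA, and its fold change was 1.0005 with a 95% interval of 0.77 to 1.3 (edgeR adjusted p = 0.999).

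The calls in this comparison turned on ICH replicate 5, the ICH library nearest to sham in these genes, so that leaving it out widens the gap. Without ICH replicate 5, Spp1, Lgals3, Gpnmb and Aif1 were called lower in ICH_MA, where 5.68% of all genes were called lower with the same 3 ICH_MA and 2 ICH libraries. Spp1 was then 7.64-fold lower (edgeR adjusted p = 0.00326), Lgals3 3.14-fold lower (edgeR adjusted p = 0.0017), Gpnmb 2.75-fold lower (edgeR adjusted p = 0.00893) and Aif1 1.52-fold lower (edgeR adjusted p = 0.0307). Cd68 had a log2 fold change of -1.25 and narrowly missed the threshold (edgeR adjusted p = 0.0514). Leaving out ICH replicate 1, the highest ICH library for Spp1, Gpnmb, Cd68 and Aif1, narrowed the gap, and 0 of the 6 genes and 0% of all genes were called. The log2 fold changes were then -2.14 for Spp1 (edgeR adjusted p = 0.461), -1.01 for Lgals3, -0.69 for Gpnmb, -0.50 for Cd68 and -0.29 for Aif1, with adjusted p from 0.461 to 0.8. With any library other than ICH replicate 5 left out, 0 of the 6 genes were called with edgeR.

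The third comparison set treated rats against sham rats. Again 5 of the 6 genes rose and Arg1 did not pass, where 5% of all genes rose (edgeR adjusted p under 0.05, 3 ICH_MA against 5 sham libraries). The same 5 genes were higher in every ICH_MA library than in any sham library, as were 11.8% of all genes. Without sham replicate 1 they were again called, where 5.34% of all genes rose, with log2 fold changes from 1.36 for Aif1 to 3.97 for Spp1. The median log2 fold change of the 6 genes was 2.97, against -0.0028 over all genes. This comparison shares its sham libraries with the one of ICH against sham and its ICH_MA libraries with the one against ICH.

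Spp1 averaged 67.1 ± 32.6 CPM in ICH_MA (SD, n = 3) and 3.83 ± 1.22 CPM in sham (SD, n = 5), a 17.5-fold rise with a 95% interval of 8.41 to 36.4 (edgeR adjusted p = 0.00108). Gpnmb averaged 67.3 ± 22.2 CPM in ICH_MA and 6.64 ± 0.804 CPM in sham, a 10.1-fold rise with an interval of 6.31 to 16.3 (edgeR adjusted p = 0.000585). Lgals3 averaged 22.01 ± 5.57 CPM in ICH_MA and 2.62 ± 0.403 CPM in sham, a rise of 8.39-fold with an interval of 4.93 to 14.3 (edgeR adjusted p = 0.00108). Even the lowest ICH_MA library, replicate 3 for all of these genes, was several times above the highest sham library.

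Cd68 averaged 8.92 ± 4.73 CPM in ICH_MA and 1.21 ± 0.145 CPM in sham, a 7.36-fold rise with an interval of 3.98 to 13.6 (edgeR adjusted p = 0.00305). This call was lost with limma-voom (adjusted p = 0.0514), by which 3.64% of all genes rose. Aif1 averaged 15.7 ± 0.261 CPM in ICH_MA and 6.38 ± 0.938 CPM in sham, a 2.46-fold rise with an interval of 1.95 to 3.1 (edgeR adjusted p = 0.00108). Arg1 averaged 7.39 ± 1.35 CPM in ICH_MA and 7.0 ± 1.12 CPM in sham, and its fold change of 1.06 had an interval of 0.836 to 1.33 (edgeR adjusted p = 0.817).

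**Figure D2:**
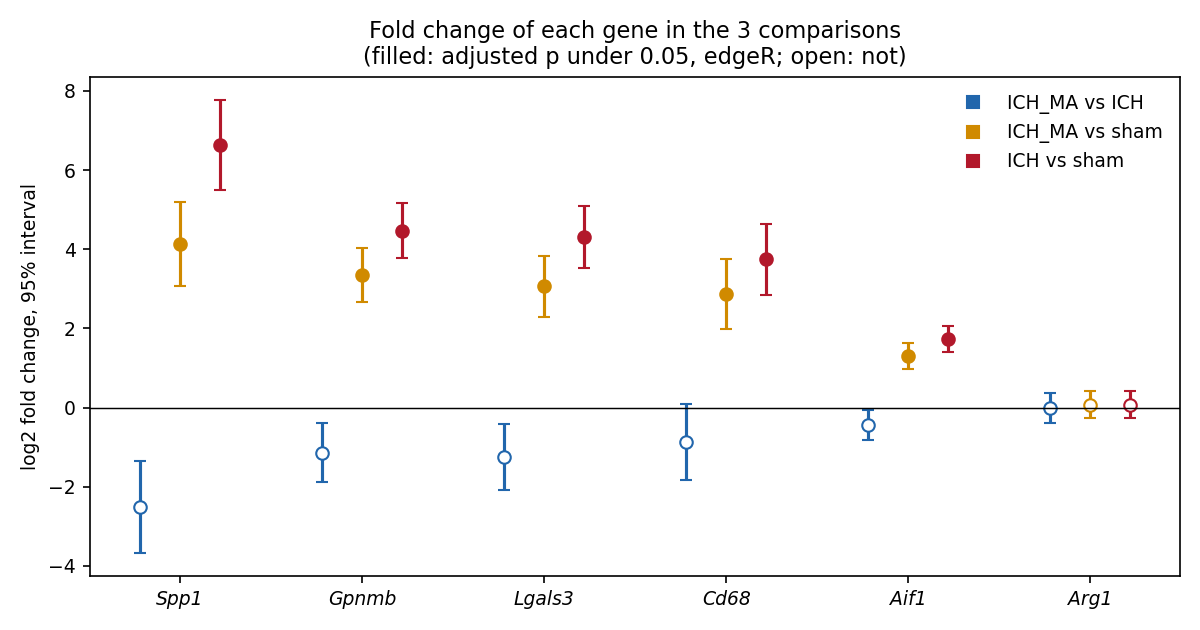
Log2 fold change of each gene with its 95% interval in ICH_MA against ICH, ICH_MA against sham and ICH against sham, filled where the edgeR adjusted p was under 0.05. Spp1 has the largest rise against sham among the 6 genes in both groups with hemorrhage (6.64 in ICH, 4.13 in ICH_MA), and the Arg1 intervals cross 0 in all 3 comparisons.

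The order of the group means was the same for Spp1, Lgals3, Gpnmb, Cd68 and Aif1, with sham lowest, ICH_MA between and ICH highest. The same ICH libraries serve both comparisons, which favours this order in genes that rose in ICH. Its share over all genes was not counted. The step between ICH_MA and ICH lay within the spread of these libraries except for Spp1, as far as overlap of the libraries goes. Arg1 averaged 7.39 CPM in ICH_MA, 7.39 CPM in ICH and 7.0 CPM in sham, with no neighbours apart beyond their spread. Against all genes tested, the rises after hemorrhage were far out in the distribution. In ICH against sham, Gpnmb, Lgals3, Cd68 and Aif1 were numbers 39, 42, 62 and 383 from the top by log2 fold change. In ICH_MA against sham, Spp1, Gpnmb, Lgals3, Cd68 and Aif1 were numbers 24, 42, 46, 52 and 311.

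**Figure D3:**
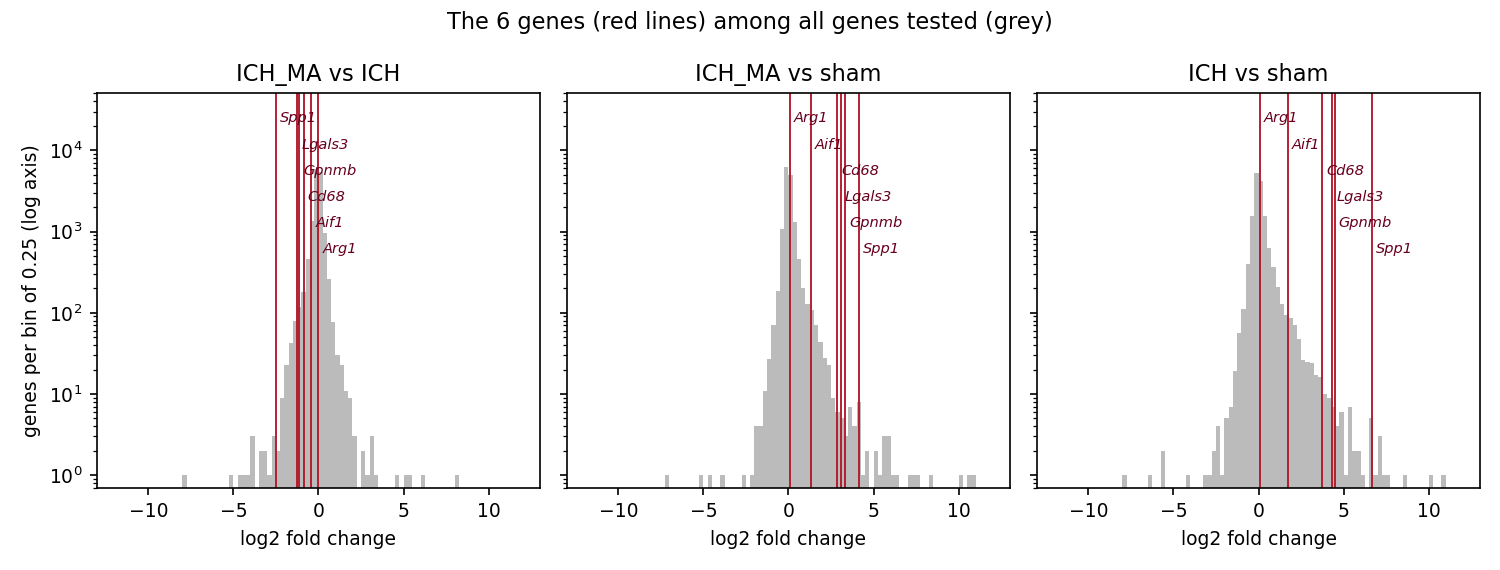
Number of genes on a log axis by log2 fold change, in bins of 0.25, for ICH_MA against ICH, ICH_MA against sham and ICH against sham, with the 6 genes as red lines. Spp1, Gpnmb, Lgals3 and Cd68 lie in the upper tail in both comparisons with sham, while Arg1 lies near the middle in all 3.

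The 6 genes varied unequally between libraries of a group. Among ICH libraries, the highest level was 4.47 times the lowest for Spp1, 3.67 times for Cd68, 3.59 times for Lgals3, 3.11 times for Gpnmb, 1.6 times for Aif1 and 1.1 times for Arg1. Among ICH_MA libraries the same quotient was 3.02 for Spp1, 3.06 for Cd68, 1.67 for Lgals3, 2.01 for Gpnmb, 1.03 for Aif1 and 1.42 for Arg1. Among sham libraries it ran from 1.33 for Cd68 to 2.36 for Spp1. Aif1 in ICH_MA thus had the closest libraries of any gene and group here.

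To show by how much the genes moved relative to a general microglia and macrophage gene, each was divided by Aif1 within the library. The log2 ratio of Spp1 to Aif1 was 1.95 ± 0.82 in ICH_MA (SD, n = 3), 3.94 ± 0.823 in ICH (SD, n = 3) and -0.78 ± 0.698 in sham (SD, n = 5). The ICH_MA libraries ran from 1.04 to 2.62, the ICH libraries from 2.99 to 4.47 and the sham libraries from -1.78 to -0.09, so no groups overlapped. A ratio to Aif1 higher in every ICH_MA than in every sham library was seen for 0.401% of all genes, and higher in every ICH than in every sham library for 0.581%. The ratio to Aif1 was lower in every ICH_MA than in every ICH library for 0.942% of all genes. By log2 fold change Aif1 itself was number 311 from the top in ICH_MA against sham and 383 in ICH against sham. In ICH_MA against ICH it was number 1177 from the bottom. Small shares thus follow in part from the choice of Aif1 as partner. Relative to Aif1, Gpnmb was 1.98 higher in ICH_MA and 2.62 higher in ICH than in sham on the log2 scale, and Lgals3 was 1.73 and 2.39 higher in the same order. Cd68 was 1.41 higher in ICH_MA and 1.82 higher in ICH. Gpnmb, Lgals3 and Cd68 ratios to Aif1 overlapped between ICH_MA and ICH, and in both groups they lay above all sham libraries.

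With Cd68 as the partner, the Spp1, Gpnmb and Lgals3 ratios lay close together among the ICH libraries, ICH replicate 5 included, with SDs of 0.186, 0.276 and 0.191, while Aif1 and Arg1 ratios had SDs of 0.644 and 1.03. The log2 ratio of Spp1 to Cd68 was 2.91 ± 0.586 in ICH_MA (SD, n = 3), 4.48 ± 0.186 in ICH (SD, n = 3) and 1.58 ± 0.497 in sham (SD, n = 5). Its ICH_MA libraries ran from 2.39 to 3.54, its ICH libraries from 4.27 to 4.62 and its sham libraries from 1.01 to 2.17. The 3 groups were apart from each other, and a ratio to Cd68 lower in every ICH_MA than in every ICH library was seen for 0.227% of all genes. Higher ratios to Cd68 without overlap with sham were seen for 0.0668% of all genes in ICH_MA and 0.0869% in ICH. By log2 fold change Cd68 itself was number 52 from the top in ICH_MA against sham and 62 in ICH against sham. In ICH_MA against ICH it was number 371 from the bottom. Few genes moved more than Cd68, so these small shares follow in part from the choice of partner. The mean log2 ratio of Spp1 to Cd68 differed by -1.58 between ICH_MA and ICH, and by 2.90 between ICH and sham. The Gpnmb ratio to Cd68 was 3.0 ± 0.321 in ICH_MA, 3.22 ± 0.276 in ICH and 2.42 ± 0.212 in sham, and the ICH_MA and ICH libraries overlapped. Lgals3 to Cd68 was 1.41 ± 0.544 in ICH_MA, 1.66 ± 0.191 in ICH and 1.09 ± 0.195 in sham, also with overlap of ICH_MA and ICH. For both genes the ICH_MA libraries overlapped the sham libraries as well, while all ICH libraries lay above all sham libraries. The lowest ICH ratio was 2.94 for Gpnmb and 1.53 for Lgals3, against highest sham ratios of 2.65 and 1.39. These ratios are descriptions without a test.

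**Figure D4:**
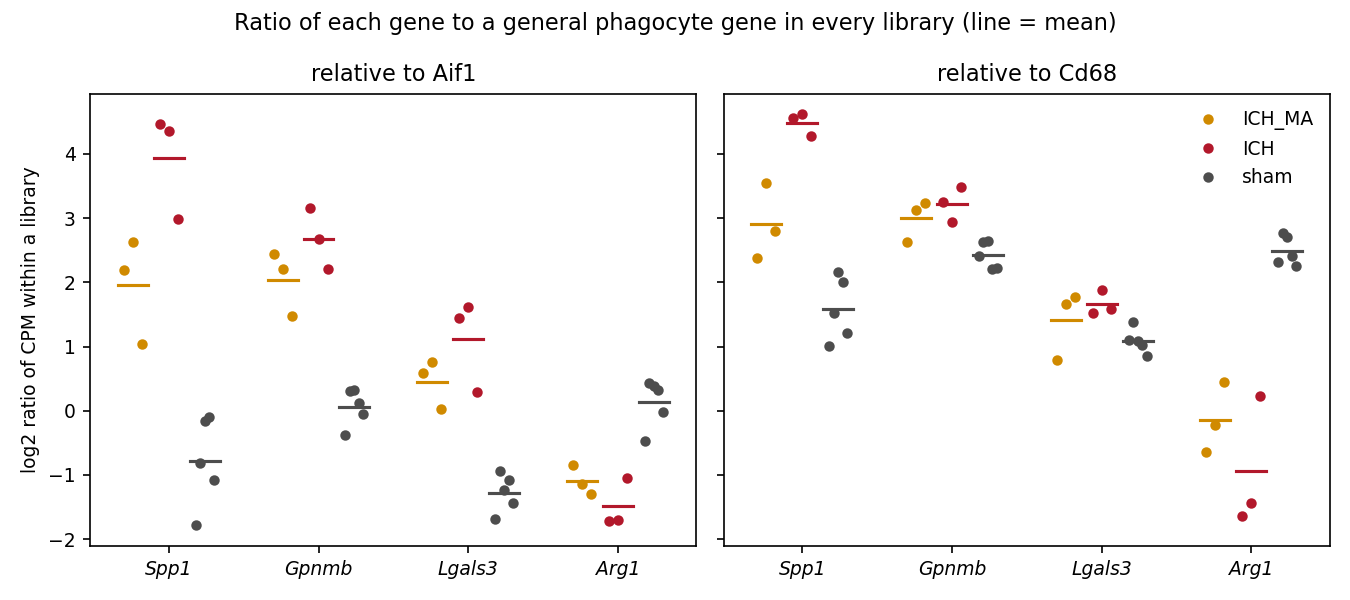
Log2 ratio of Spp1, Gpnmb, Lgals3 and Arg1 to Aif1 (left) and to Cd68 (right) in every library of ICH_MA, ICH and sham, with the group mean as a line. The Spp1 ratio separates all 3 groups with either partner, with ICH means of 3.94 to Aif1 and 4.48 to Cd68. Arg1 ratios are lower in ICH_MA and ICH than in sham, as the ratios of most genes are with either partner.

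Arg1 relative to Aif1 was -1.10 ± 0.234 in ICH_MA, -1.49 ± 0.383 in ICH and 0.13 ± 0.384 in sham on the log2 scale. The ICH_MA and ICH libraries lay below all sham libraries. A ratio to Aif1 lower in every ICH than in every sham library was seen for 92.6% of all genes, and in every ICH_MA than in every sham library for 91.8%. With Cd68 as partner these shares were 98.2% for ICH and 97.5% for ICH_MA, so the lower Arg1 ratios do not set this gene apart.

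Genes with the pattern most like the 6 were sought by the mean Pearson correlation of log2 CPM with the 6 genes over the 11 libraries, among 14384 other genes with a mean of at least 1 CPM. The groups differ for most of the 6 genes, so these values largely describe differences between groups. Arg1, which did not rise, counts in this mean as much as each other gene. The order of the genes found thus also rests on their correlation with Arg1. ENSRNOG00000000137 had the highest mean correlation, 0.882, running from 0.398 with Arg1 to 0.99. It averaged 4.37 ± 1.26 CPM in ICH_MA (SD, n = 3), 6.38 ± 1.61 CPM in ICH (SD, n = 3) and 1.62 ± 0.215 CPM in sham (SD, n = 5). ENSRNOG00000054251 was next at 0.871, running from 0.491 with Arg1 to 0.966. It averaged 2.85 ± 1.56 CPM in ICH_MA, 6.38 ± 4.34 CPM in ICH and 0.233 ± 0.233 CPM in sham. The table gives no names for these IDs.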

How the data were processed

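RNA sequencing of rat brain gave the values used here. The authors deposited whole-number counts per gene without normalization, per the file headers, which name 11 libraries. Each column was tied to the sample whose label carries its name. Bowtie2, RSEM 1.3.1, DESeq2 1.4.5 and the build mRatBN7.2 are named in the submitters' processing notes, without roles. The sources used here do not give the annotation, the use of strand or filters. RSEM estimates counts, so reads of overlapping or antisense genes and near-identical copies may be divided between IDs. Library totals ran from 56393423 to 67733469 counts.

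The edgeR function filterByExpr removed low genes (minimum count 10, minimum total 15), and counts were scaled by TMM and fitted in 1 quasi-likelihood model over all 11 libraries with edgeR 4.0.16 in R 4.3.3. The Benjamini-Hochberg adjustment ran over all 14963 genes, with a threshold of 0.05. The SE of a log2 fold change came from the F statistic, and 95% intervals used its degrees of freedom. CPM used TMM-scaled totals, and log2 CPM a prior count of 2. Alternatives were DESeq2 1.42.0, limma-voom (limma 3.58.1), RLE scaling, other filters, fits of 2 groups, a replicate block and leaving out each library. The tools were tested on simulated counts. Nothing in the labels beyond the replicate number says how the animals were kept apart, so p-values measure the spread between these samples.

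The 6 genes, the gene lists and the tests were chosen with earlier results of these data known. All 6 genes are named, with at most 2 others by likeness of pattern (mean at least 1 CPM). A list of 42 further phagocyte and lysosomal genes and 10 lists of cell type markers, held as symbols, could not be tested, since 0 of 15094 IDs matched the RefSeq gene table of 47357 genes. Promoters were matched by symbol, from RefSeq on GRCr8, a build other than that of the counts.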

Additional observations from a re-analysis of the deposited data

How the results depend on the processing

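The rises of Spp1, Gpnmb, Lgals3 and Aif1 in ICH and in ICH_MA against sham, and of Cd68 in ICH, kept their direction and passed under all 18 alternatives of each comparison. Some of these alternatives leave out a library of the group not compared. Those barely change the fold change and bear mainly on the estimate of the spread. For ICH against sham the largest adjusted p among these 5 genes was 0.00682, for Cd68. For ICH_MA against sham, Cd68 was lost under limma-voom and the replicate block (edgeR adjusted p = 0.0504), over a range of adjusted p from 5.09e-11 to 0.0514. In ICH_MA against ICH the number of the 6 genes called was 1 with DESeq2 and 0 to 4 with 1 library left out, the 4 coming without ICH replicate 5. Spp1 was called in 2 of 18 alternatives (adjusted p from 0.00326 to 0.461) and Cd68 in 0. The log2 fold change of Arg1, never called, ran from -0.021 (without sham replicate 1) to 0.16 with 1 library left out in ICH against sham. In ICH_MA against ICH it ran from -0.15 (without ICH_MA replicate 1) to 0.11, with -0.042 without ICH replicate 2, and was -0.021 with limma-voom. In ICH_MA against sham it ran from -0.076 (without ICH_MA replicate 1) to 0.19, with -0.0075 without sham replicate 1. The cause was not tested.

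Over all genes, calls in ICH against sham numbered 3662, with 1914 under the replicate block and 1992 to 4484 with 1 library left out, the lowest being 1992 without ICH replicate 1 and 2231 without ICH replicate 2. In ICH_MA against ICH they numbered 0, with 476 by DESeq2 and 0 to 1137 with 1 library left out. Of these, 1137 came without ICH replicate 5 and 1 without sham replicate 1. In ICH_MA against sham they numbered 998, with 1823 by DESeq2, 1541 with only the groups compared, 117 under the replicate block and 348 to 1575 with 1 library left out. There they were 459, 348 and 506 without ICH_MA replicates 1, 2 and 3, 570, 545, 577 and 569 without sham replicates 2, 3, 4 and 5, and 1575 without ICH replicate 5. The main fit did not pair libraries with the same replicate number. Deviations of same-numbered libraries from their group means correlated at -0.156 to 0.0853, and 1 of 11 libraries correlated best with its own number. With groups this small, these values cannot exclude a pairing. Means of 2 or 3 libraries limit what the comparison of ICH_MA with ICH can show.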
